A study of Mus musculus with 10 samples.

Results

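Camp, Ngp, Ltf, Cybb and Cfp, genes of neutrophil granules and of the phagocyte oxidase, were examined in mouse haematopoietic stem cells (HSCs) that carry or lack the surface protein Jam2. The 5 genes were chosen by their difference between Jam2+ and Jam2- HSCs on these same arrays, so that difference is described here and not tested. All 5 had a row, among 2721 genes whose rows could be placed and 41345 rows in the whole table. RNA was hybridised to 10 single-colour Affymetrix arrays, 5 of Jam2+ HSCs and 5 of Jam2- HSCs, numbered 1, 2, 4, 5 and 6 in each group. Both groups came from wild-type C57BL/6 SJL males. Both were sorted as Lineage- cells positive for c-kit, Sca-I and CD150 and negative for CD48, and differed in surface Jam2, an adhesion molecule of cell junctions. No treatment or age is named. The labels speak of 5 mice and do not tie a number to a mouse, so the spread between arrays may be partly technical.

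Neutrophils store antimicrobial proteins in granules that form in sequence as the cell matures in the bone marrow. Camp encodes cathelicidin, the precursor of an antimicrobial peptide, and Ngp, neutrophilic granule protein, belongs to the same family. Ltf encodes lactoferrin, an iron-binding protein, and these genes are switched on late, at the myelocyte stage, when secondary granules are made. Cybb encodes gp91phox, the catalytic subunit of the NADPH oxidase that makes superoxide in phagocytes. Cfp encodes properdin, which stabilises the convertase of the alternative complement pathway and is held in neutrophil granules. Mature granulocytes carry lineage antigens, which the Lineage- gate is meant to remove. In bulk RNA, more cells of a type and more RNA per cell cannot be told apart.

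The upstream sequences of Camp, Ngp and Ltf are shown because these genes had the widest spread over arrays among the members, and because C/EBP factors are known to drive secondary granule genes. Each is the 250 bases before the annotated start in RefSeq, build GRCm38.p6, written 5′ to 3′ on the strand of the gene: Camp from chr9:109849457-109849706 (minus strand), Ngp from chr9:110419558-110419807 (plus strand) and Ltf from chr9:111019042-111019291 (plus strand). Capitals mark matches on either strand to TTGCNNAA, a letter pattern for sites of C/EBP factors, or to GAGGAA, a pattern for sites of the ETS factor PU.1; the TATA box, searched as TATAAA, gave no match in any of the 5 windows.
Camp: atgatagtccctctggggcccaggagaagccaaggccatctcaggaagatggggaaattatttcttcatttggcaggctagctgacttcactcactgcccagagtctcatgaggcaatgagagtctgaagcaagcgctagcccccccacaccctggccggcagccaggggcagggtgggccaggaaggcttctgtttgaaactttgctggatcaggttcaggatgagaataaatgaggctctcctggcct
Ngp: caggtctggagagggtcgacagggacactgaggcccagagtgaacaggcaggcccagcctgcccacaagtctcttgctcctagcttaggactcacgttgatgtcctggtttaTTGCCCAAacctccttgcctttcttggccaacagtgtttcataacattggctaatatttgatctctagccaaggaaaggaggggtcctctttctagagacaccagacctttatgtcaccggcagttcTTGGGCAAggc
Ltf: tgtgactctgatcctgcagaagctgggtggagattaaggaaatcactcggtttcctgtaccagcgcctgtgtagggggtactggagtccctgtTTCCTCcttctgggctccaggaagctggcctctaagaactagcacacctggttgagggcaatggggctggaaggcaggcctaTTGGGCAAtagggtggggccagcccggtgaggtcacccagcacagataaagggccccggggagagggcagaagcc

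The Ngp window held the C/EBP pattern at 138 to 131 and again, on the other strand, at 11 to 4 bases before the start. The Ltf window held it at 75 to 68 bases, on the other strand, and the PU.1 pattern at 157 to 152 bases, also on the other strand. No matches overlapped. The Camp window, and the windows of Cybb and Cfp on chromosome X, held none of the 3 patterns. Of 32851 promoter windows of the same length, 9.56% held the C/EBP pattern, 23.3% the PU.1 pattern and 12.4% the TATA box, so such letters are common. The patterns were picked with these sequences in view, and a match in letters is no evidence that a factor binds.

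Gene identity on these arrays is inferred. In the deposited table the row IDs do not lie beside their own values, and a block of IDs at its end was given, in order, the values of as many rows at its start. On these rows the median log2 value was 12.09 for the 24 rows of ribosomal proteins, needed in bulk by every cell. It was 3.63 for the 140 rows of receptors of smell and pheromones, which belong to sensory neurons. With the rows as deposited the same families lay at 5.92 and 5.09. The difference between the families was 8.45 as placed and at most 4.05 when the IDs were moved by up to 10 rows either way. Kdm5d, Uty and Eif2s3y, genes of the Y chromosome, had means of 7.69, 7.95 and 8.85, and Xist, which is made from the inactive X chromosome of females, had 4.61, in cells from male mice. The placement was known from earlier results of these data, so these levels are no independent test of it.

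**Figure D1:**
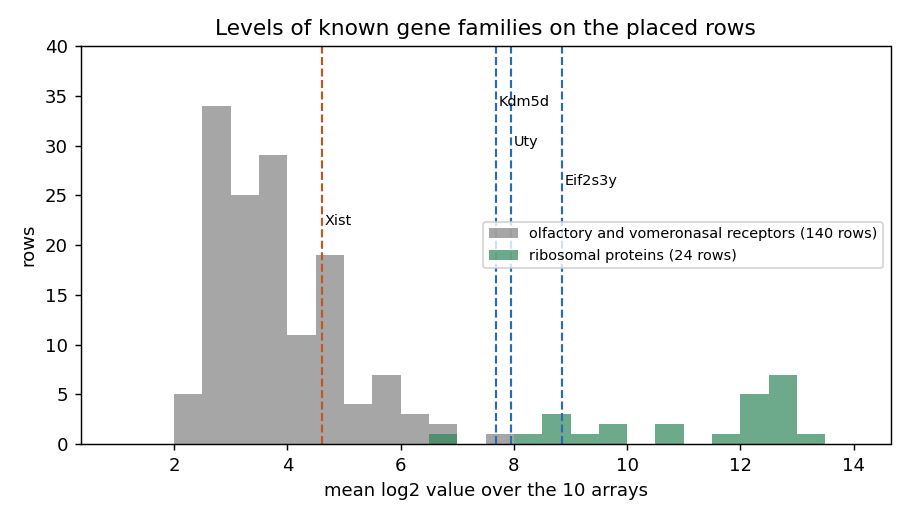
Number of rows (vertical axis) by mean log2 value over the 10 arrays (horizontal axis) for 24 ribosomal protein rows and 140 receptor rows among the placed rows; dashed lines mark 3 Y-linked genes and Xist. Receptor rows have a median of 3.63 and ribosomal protein rows a median of 12.09. Ribosomal protein rows run from 6.90 to 13.11, and the highest receptor row, at 7.69, lies above the lowest of them. The Y-linked genes lie at 7.69 to 8.85, above Xist at 4.61.

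The cathelicidin gene Camp had log2 values of 4.13, 4.35, 4.53, 4.77 and 4.73 in Jam2+ replicates 1, 2, 4, 5 and 6. In the Jam2- arrays of the same numbers it had 5.59, 7.88, 5.02, 7.77 and 4.85. All 5 Jam2- arrays lay above all Jam2+ arrays, but Jam2- replicates 2 and 5 stood far above the other Jam2- arrays, and replicate 6 lay just above the highest Jam2+ array. Jam2+ arrays averaged 4.50 ± 0.27 and Jam2- arrays 6.22 ± 1.49 (SD, n = 5 each). Jam2+ minus Jam2- was -1.72 (standard error 0.678), or 3.29-fold higher in Jam2-. All Jam2+ values of Camp lay within the central range of the receptor rows, 2.54 to 5.99. The Jam2+ level is therefore not shown to be above background, and folds against it, here and for Ngp and Ltf, may be too small. Jam2- replicates 1, 4 and 6 lay within that range too, so their differences from the Jam2+ arrays compare values not shown to be above background. Against the Jam2+ mean, Jam2- replicates 2 and 5 were 10.4-fold and 9.65-fold higher, replicate 1 was 2.12-fold higher, and replicates 4 and 6 were 1.43-fold and 1.27-fold higher. Taking group medians, the difference was -1.06, since the mean of the Jam2- group rests on replicates 2 and 5. Without both of those arrays it was -0.65, and without Jam2- replicate 2 alone -1.30.

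Ngp, its relative, had 6.02, 5.73, 5.80, 5.57 and 5.67 in the Jam2+ arrays and 6.35, 8.19, 7.22, 8.88 and 5.91 in the Jam2- arrays, in the same order of numbers. Replicates 5 and 2 were again the highest, replicate 4 came next, and replicate 6 fell inside the Jam2+ range, so the groups overlapped in that array. The means were 5.76 ± 0.17 (SD, n = 5) and 7.31 ± 1.24 (SD, n = 5) for Jam2+ and Jam2-. Jam2+ minus Jam2- was -1.56 (standard error 0.558), or 2.94-fold higher in Jam2-. In 4 of 5 Jam2+ arrays, and in Jam2- replicate 6, Ngp lay within the receptor range too. Jam2- replicate 5 was 8.72-fold and replicate 2 was 5.40-fold above the Jam2+ mean. Without both, the difference was -0.74.

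The lactoferrin gene Ltf had 5.35, 5.17, 5.29, 5.20 and 5.24 in the Jam2+ arrays, a range of only 0.18. In the Jam2- arrays it had 5.62, 5.88, 6.04, 7.43 and 5.14. Jam2- replicate 5 stood well above the rest, replicates 1, 2 and 4 lay above every Jam2+ array, and replicate 6 lay below them all. All Jam2+ values of Ltf, and those of Jam2- replicates 1, 2 and 6, lay within the receptor range. The means were 5.25 ± 0.07 (SD, n = 5) and 6.02 ± 0.86 (SD, n = 5). Jam2+ minus Jam2- was -0.77 (standard error 0.384), or 1.71-fold higher in Jam2-. The value depended on Jam2- replicate 5, without which it was -0.42, and without Jam2- replicates 2 and 5 it was -0.35.

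**Figure D2:**
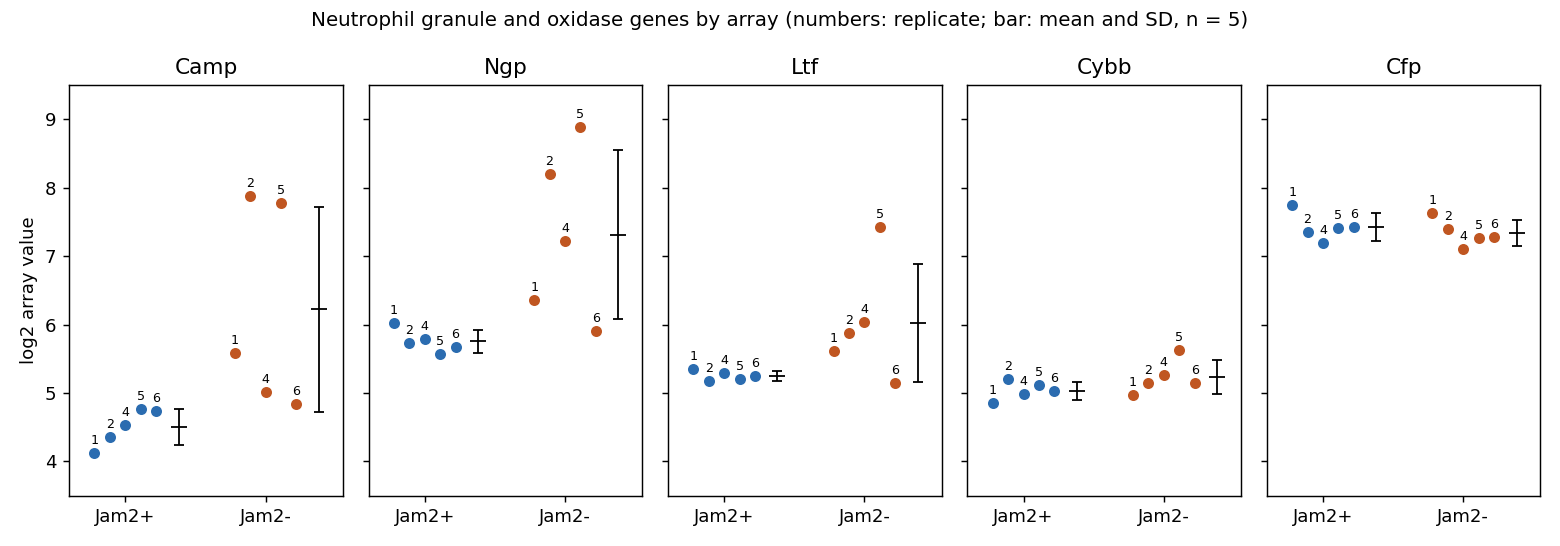
Log2 array value (vertical axis) of each of the 5 genes in each array, Jam2+ in blue and Jam2- in orange; the small number at each point is the replicate and the bar beside each group is its mean and SD (n = 5). For Camp, Ngp and Ltf the Jam2+ arrays lie close together and the Jam2- arrays are spread, up to 7.88, 8.88 and 7.43; Cybb and Cfp show no such spread.

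The oxidase gene Cybb had 4.85, 5.20, 4.99, 5.11 and 5.03 in the Jam2+ arrays and 4.98, 5.15, 5.27, 5.63 and 5.15 in the Jam2- arrays. Only Jam2- replicates 4 and 5 lay above every Jam2+ array. All values of Cybb in both groups lay within the receptor range. The means were 5.04 ± 0.13 (SD, n = 5) and 5.23 ± 0.24 (SD, n = 5). Jam2+ minus Jam2- was -0.20 (standard error 0.124), and -0.10 without Jam2- replicate 5. The properdin gene Cfp had 7.75, 7.35, 7.19, 7.42 and 7.43 in the Jam2+ arrays and 7.63, 7.39, 7.11, 7.27 and 7.27 in the Jam2- arrays. No Jam2- array lay above the highest Jam2+ array, and Jam2- replicate 4 alone lay below the lowest. Its means were 7.43 ± 0.21 (SD, n = 5) and 7.33 ± 0.19 (SD, n = 5). Jam2+ minus Jam2- was 0.09 (standard error 0.127), less than the spread in either group. Without Jam2+ replicate 1 the Cfp difference was 0.01.

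Camp, Ngp and Ltf differed in mean by more than the whole Jam2+ range of each, and Cybb and Cfp did not, as the values that chose these genes show. Jam2- replicates 1, 2, 4 and 5 lay above every Jam2+ array for all 3 granule genes, and Jam2- replicate 6 for 1 of them, Camp. Over the 10 arrays, Pearson's r was 0.92 between Camp and Ngp, 0.91 between Ngp and Ltf and 0.78 between Camp and Ltf, with Spearman's rho of 0.68, 0.83 and 0.59. With the 2 arrays farthest from the median left out, Jam2- replicates 2 and 5, r was 0.45, 0.96 and 0.50, so the closeness of Camp to the others rests on those arrays. Cybb had r of 0.63 with Camp, 0.72 with Ngp and 0.81 with Ltf. Without the 2 arrays farthest from the median of Camp or Ngp, again Jam2- replicates 2 and 5, these were 0.21 and 0.34, and without Jam2- replicates 4 and 5, the farthest for Ltf, r with Ltf was -0.08. Cfp had r of -0.14, -0.25 and -0.26 with Camp, Ngp and Ltf. These correlations describe genes picked on the same arrays, which share their normalization, and carry no test.

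**Figure D3:**
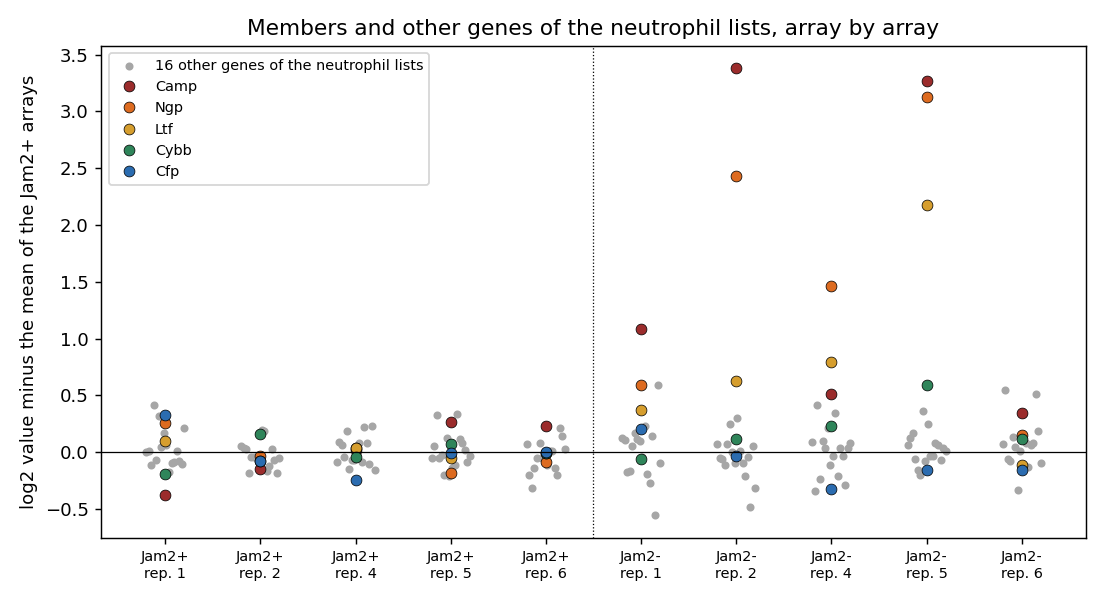
Log2 value minus the mean of the Jam2+ arrays (vertical axis) in each of the 10 arrays (horizontal axis) for the 5 members, in colour, and 16 other genes of the neutrophil lists, in grey. In Jam2- replicate 5 Camp, Ngp and Ltf lie 3.27, 3.12 and 2.18 above the Jam2+ mean, and in Jam2- replicate 6 they lie at 0.34, 0.15 and -0.11, among the grey points.

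Set beside all placed genes, which had a median difference of 0.01, Camp, Ngp and Ltf had the 3 lowest differences of 2721. These ranks restate the choice of the members. Counted from the lowest difference, Cybb ranked 139 and Cfp 2109. Of the 5 members, 3 were lower in Jam2+ by 0.5 log2 units or more, against 0.257% of placed genes. For 1 member, Camp, the Jam2+ arrays lay wholly below the Jam2- arrays, against 0.331% of placed genes. For 2 members, Camp and Ngp, at least 2 Jam2- arrays lay over 1 log2 unit above every Jam2+ array, against 0.0735% of placed genes, which is these same 2 genes. The SD over Jam2- arrays ranked the first of 2721 for Camp, the second for Ngp and the fourth for Ltf. These SDs rest on the same high Jam2- values that make the differences of the chosen members, so they are no separate result. Across all 41345 rows, limma called 0% at an adjusted p under 0.05, and 4.08% had an unadjusted p under 0.05, 1688 rows.

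**Figure D4:**
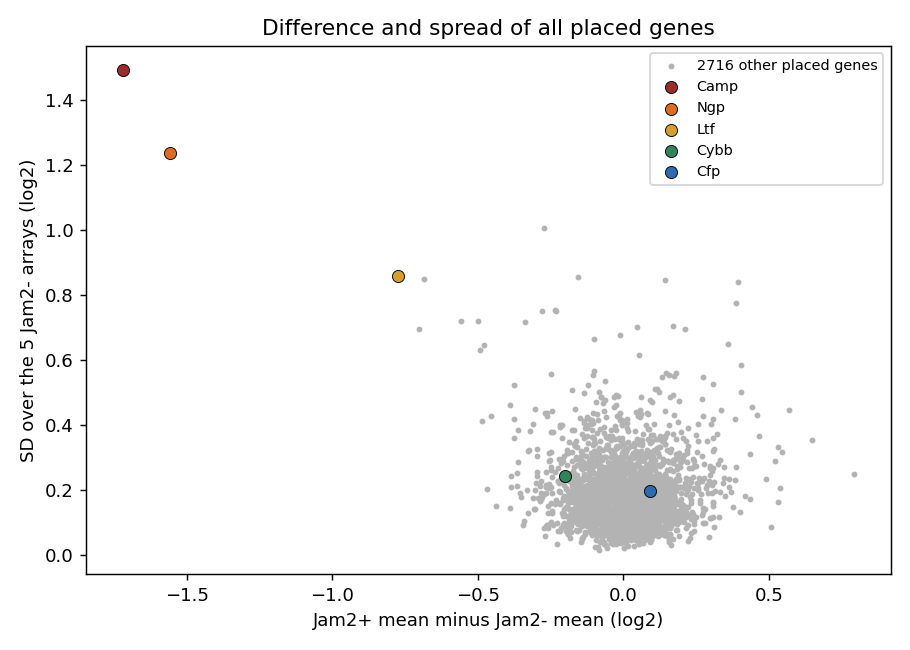
SD over the 5 Jam2- arrays (vertical axis, log2) against the Jam2+ mean minus the Jam2- mean (horizontal axis, log2) for 2716 other placed genes, in grey, and the 5 members, in colour. Camp (-1.72, SD 1.49) and Ngp (-1.56, SD 1.24) lie apart at the upper left, Ltf (-0.77, SD 0.86) at the edge, and Cybb and Cfp within the cloud.

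Other genes with a placed row on the lists of granule, oxidase, complement and mature neutrophil genes had no difference of this size. Some of them were not shown to be above background, as given below. Of 119 genes on these lists that are no member, 16 had a placed row, and their median difference was -0.05, with 10 below 0 and 6 above. None of the 16 passed in limma (adjusted p of 0.99992 for each, with Benjamini-Hochberg adjustment over all rows), and 0 had an unadjusted p under 0.05. The azurophil granule genes, such as Mpo and Elane, had no placed row with 1 gene symbol. S100a8, S100a9, Lcn2, Retnlg, Chil3 and Ly6g of the other neutrophil lists had none either, so they were not read. Among granule genes, Mmp8, a collagenase of the secondary and tertiary granules, was 5.29 ± 0.15 in Jam2+ and 5.41 ± 0.16 in Jam2- arrays (SD, n = 5 each). Hp, which encodes haptoglobin, was 6.43 ± 0.14 and 6.60 ± 0.19 (SD, n = 5 each), a difference of -0.16.

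The oxidase list had 3 of 16 genes placed, with differences of -0.20 to 0.13. Cyba, which encodes p22phox, the partner of gp91phox, had 10.10, 9.99, 9.98, 10.17 and 9.99 in Jam2+ arrays and 10.16, 10.05, 10.26, 10.41 and 9.71 in Jam2- arrays. Its highest value was in Jam2- replicate 5 and its lowest in Jam2- replicate 6, and its group means differed by -0.07. Nox1, an oxidase of epithelial cells that stands on the list as a relative of Cybb, differed by 0.13. Cfp was the sole placed gene of the 24 on the complement list. Tlr13, a receptor for bacterial RNA, differed by -0.18, Aqp9, an aquaglyceroporin, by -0.09, and Bcl2a1a, a survival factor of granulocytes, by -0.08. Sorl1, a sorting receptor, was the sole one of the 16 genes whose values spread by over 1 log2 unit. It had 6.05, 6.06, 6.02, 6.14 and 6.34 in Jam2+ arrays and 5.57, 5.64, 5.83, 6.06 and 6.63 in Jam2- arrays. It was highest in Jam2- replicate 6, where the granule genes were lowest within their group. Btk, Casp4, Ccr1, Ccrl2, Cysltr1, Plscr1, Pstpip1 and Was completed the list, and all 16 differences lay between -0.18 and 0.17. The mean of the 16 genes lay between 6.84 and 6.91 in Jam2+ arrays and between 6.84 and 6.97 in Jam2- arrays, highest in replicate 6. Mmp8, Nox1, Tlr13, Ccr1 and Cysltr1 lay within the receptor range in every array of both groups. Their small differences therefore do not show that their RNA was unchanged. Cyba, Was, Pstpip1, Casp4 and Btk were bright in both groups, with group means between 8.71 and 10.12. Whether the 16 genes could show added neutrophil RNA was not tested.

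Markers of other cells that a marrow sort could hold were read the same way, and many of them lay within the receptor range too. In every array this held for Cd3d, Cd3e, Cd3g, Cd40lg, Sh2d1a, Foxp3, Cxcr6 and Crtam of the T and NK list. From the other lists it held for Ccr2, Tlr7, Tlr8, Vsig4, Gpr34, Ccr3, Xcr1, Ccr9, Pou2af1, Irf8, Col1a2 and Timp1. Small differences of such genes do not show that their RNA was absent or unchanged. Whether these lists could show RNA of other cells was not tested. The monocyte and macrophage list had 11 of 36 genes placed, with 3 below 0 and 8 above and a median difference of 0.04. Its array means were 5.77 to 5.89 in Jam2+ and 5.76 to 5.87 in Jam2- HSCs, and its brightest genes, the inflammatory protease gene Casp1 and the cytokine gene Il18, differed by 0.02 and 0.10. The T and NK cell list had 11 of 26 genes placed, with 6 below 0, a median of -0.003 and array means of 5.46 to 5.64 and 5.52 to 5.65; Thy1 and S1pr5 differed by 0.14 and -0.06. Of the granulocyte regulators, 5 of 18 were placed, with a median of 0.06; Fli1, an ETS factor of blood cells, differed by -0.13 and Cbl, a ubiquitin ligase, by 0.07.

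Gata1 and Ccr3 (mast cell, basophil and eosinophil list, 2 of 17 placed) differed by -0.11 and 0.10, Xcr1 and Ccr9 (dendritic cells, 2 of 14) by -0.01 and 0.13, and Btk and Pou2af1 (B cells, 2 of 20) by -0.06 and 0.13. Among erythroid genes, 3 of 22 placed, Xk and the erythropoietin receptor gene Epor differed by -0.01 and 0.05, and among megakaryocyte genes, 3 of 21 placed, Fli1 and Nbeal2 by -0.13 and 0.06. The endothelial and stromal list, 6 of 21 placed, held Bgn, a matrix proteoglycan gene, at 0.19 and Robo4 at 0.07. Of the stem cell genes 4 of 33 had a placed row, and Robo4 and Esam, surface proteins of HSCs and endothelium, differed by 0.07 and -0.17. Kit, Slamf1 and Ly6a, genes of the sort itself, had no placed row with 1 gene symbol, and Cd48 was on none of the lists. The sort was therefore not checked on these genes. Jam2 had no placed row with 1 gene symbol either, so the split into Jam2+ and Jam2- could not be checked on its own gene. None of the genes on these lists passed in limma (adjusted p of 0.99992 for each list's smallest), and 1 of them, Jam3 on the stem cell list, had an unadjusted p under 0.05, at -0.25.

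**Figure D5:**
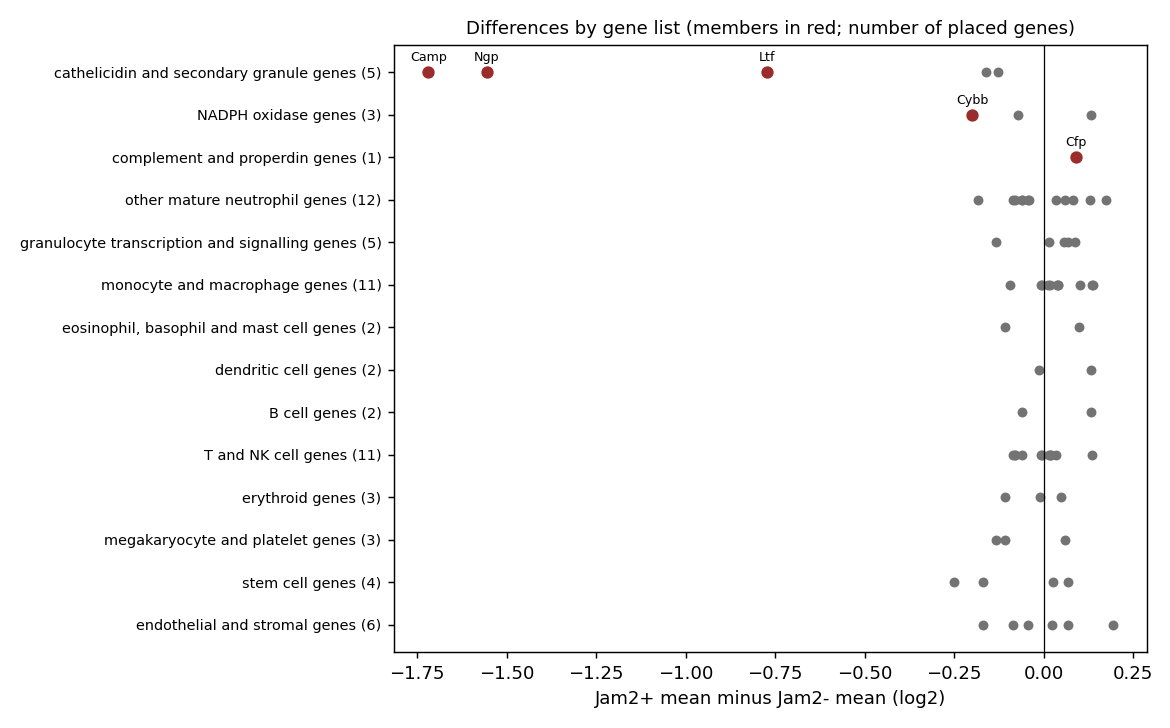
Jam2+ mean minus Jam2- mean (horizontal axis, log2) of every placed gene of 14 gene lists (vertical axis, with the number of placed genes); each point is a gene and members are red. Camp, Ngp and Ltf lie between -1.72 and -0.77, and all other points lie between -0.25 and 0.19.

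Genes beside the members in the order of the IDs, which follows the chromosome, had no difference of the size seen for Camp, Ngp and Ltf. Of 20 neighbouring rows, the nearest 2 with 1 symbol on each side of each member, differences ran from -0.30 to 0.16 and values spread over all arrays by at most 0.97. Cybb, at -0.20, and Cfp, at 0.09, lay within that range of differences. Dhx30, 1 row after Camp, differed by 0.02, and Scap and Kif9, 1 row on either side of Ngp, by -0.03 and 0.08. Epm2aip1, beyond Ltf, had the lowest value, -0.30.

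The genes most like the mean of the 5 members over the 10 arrays, each centred on its own mean, were Smim10l2a (Pearson's r = 0.89), Clpx (0.84), Vps26b (0.83), Crtap (0.83), Mlkl (0.82), Abcb10 (0.82), Tomm20 (0.82), Lactb (0.82), Ibtk (0.79) and Spg21 (0.79). Among 2716 other genes none had r above 0.9 and 8 had r above 0.8. The 10 named are the highest of these 2716 over only 10 arrays, where unrelated genes can reach such values, and no test was made. The 10 genes spread by 0.38 to 0.74 log2 units over all arrays, against 3.75 for Camp. Crtap, for example, averaged 9.17 ± 0.08 in Jam2+ and 9.41 ± 0.13 in Jam2- arrays (SD, n = 5 each). Each member against the mean of the other members gave 0.96 for Ngp, 0.88 for Camp, 0.87 for Ltf, 0.70 for Cybb and -0.24 for Cfp.

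Arrays Jam2+ replicate 1 and Jam2- replicate 6 resembled the others least over all rows, with mean r of 0.970 and 0.968, where the other 8 had 0.976 to 0.980. Without both, Camp differed by -1.97, Ngp by -1.97 and Ltf by -1.02. Jam2- replicates 2 and 5, where the granule genes were highest, did not stand apart in this way, with 0.977 and 0.979. Whether array quality has a part in the granule values was not tested.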

How the data were processed

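The 10 arrays measured RNA of sorted HSCs. The authors deposited log2 values; per the submitters' processing notes the R package oligo was used. Which version, background correction and normalization it ran is not given in the sources used here. Log2 as the scale is taken from the values, with array medians of 5.96 to 6.05; rows were not centred, as their means cover the whole range. Direction follows the group labels. Arrays have no read depth, and their number limits precision. GEO's platform table named the IDs: among placed rows 2872 had 1 gene symbol, 397 several and 2293 none, and the brightest row stood for its gene. Groups were compared over all rows with limma's lmFit and eBayes, group as the only term, Benjamini-Hochberg threshold 0.05; the procedure was tested on simulated data. The members, and the gene lists, were chosen with earlier results of these data known. Named genes were the members, placed neutrophil genes, the 10 most like the members, 2 neighbours on each side and the 2 brightest of each other list, with Y-linked genes and Xist as placement checks. The fit ran under limma 3.58.1 in R 4.3.3. Tables and plots used pandas 2.3.3, numpy 2.4.6 and matplotlib 3.10.9 under Python 3.11.15. Alternatives left out arrays, rescaled them, filtered dim rows or changed the fit, summary or row placement.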

Additional observations from a re-analysis of the deposited data

How the results depend on the processing

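The run without Jam2- replicates 2 and 5 was chosen after seeing the data. With 1 array left out, the median difference of the 5 members ran from -0.99 to -0.42, lowest without Jam2- replicate 6 and highest without Jam2- replicate 5, and was -0.35 without Jam2- replicates 2 and 5; without Jam2+ replicate 1 and Jam2- replicate 6 it was -1.02, and rescaling and other summaries gave -0.80 to -0.64. Camp, Ngp and Ltf kept their direction in every run on the placed rows. With IDs as deposited the median was 0.078, with IDs 1 row later 0.037 and 1 row earlier -0.0040, as other genes' rows are then read. The median of the 16 other genes of the neutrophil lists ran from -0.059 to -0.011 with 1 array left out, the latter without Jam2+ replicate 6, and was -0.062 without Jam2- replicates 2 and 5. The difference between ribosomal and receptor rows was 3.39, 3.49, 2.05, 1.99, 1.73, 1.02, 1.03, 1.19, 2.04 and 0.43 with IDs moved 1 to 10 rows later, 4.05, 3.20, 1.80, 1.82, 2.28, 1.61, 1.64, 1.53, 1.77 and 2.16 with IDs moved 1 to 10 rows earlier, and 0.83 as deposited.

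Limma called 0 rows in 19 of 20 alternatives and 0 to 1 with 1 array left out, the 1 without Jam2+ replicate 6. The replicate number as a fixed or random block called 0 and 0 rows, and the replicate block of same-numbered pairs gave a member median of -0.71. Deviations of same-numbered arrays correlated at -0.02 to 0.11. The labels do not say that a number is a mouse, so the numbers were not taken to pair arrays. The array of the other group closest in its deviations bore the same number for 4 of 10 arrays. The same correlations were read from both groups and no expected share was worked out, so this count does not settle pairing. The labels name 5 mice, so a shared mouse is possible and not stated. Jam2+ was lower in 5 of 5 same-numbered pairs for Camp and Ngp, in 4 of 5 for Ltf and Cybb, and in 1 of 5 for Cfp. Other placed genes were not counted in this way, and the members were chosen on this contrast, so these counts lend no paired support. No detection call was used. All Jam2+ values of Camp, Ltf and Cybb, and 4 of 5 of Ngp, lie within the central range of the receptor rows, 2.54 to 5.99. So do Jam2- replicates 1, 4 and 6 for Camp, 6 for Ngp, 1, 2 and 6 for Ltf, and all Jam2- arrays for Cybb. Signal over background limits all these values.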

Other observations

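Over the whole table, where most rows have no settled gene, 45 of 41345 rows had at least 2 Jam2- arrays over 1 log2 unit above every Jam2+ array, and 36 had the mirror image. Among the placed rows these counts were 5 and 0. The 5 were Ngp and Camp, members chosen on this contrast, and 3 rows without a gene symbol. The first of the unnamed rows had 3.04, 5.85, 5.83, 3.85 and 6.91 in Jam2- replicates 1, 2, 4, 5 and 6, highest where the granule genes were lowest. The second had 3.31, 5.32, 4.40, 5.48 and 3.52, with replicates 5 and 2 highest as for Ngp. The third had 5.47, 2.52, 5.21, 5.56 and 3.96.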
